A study of Homo sapiens with 18 samples.

Results

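The circadian clock genes described here are the activator CLOCK, the period genes PER1, PER2 and PER3, the cryptochrome genes CRY1 and CRY2, the nuclear receptor genes NR1D1 and NR1D2, and the output transcription factor genes DBP and TEF. They are a list of gene names, to which no threshold on measured values was applied, and are 10 of the 58884 genes in the count tables. RNA was sequenced from T47D, a luminal breast cancer cell line, to compare the PARP inhibitors niraparib and olaparib in cells with and without PARP1, an enzyme that adds ADP-ribose to proteins at DNA breaks. All cells had 48 hours with DMSO, with 10 μmol/L niraparib in DMSO or with 10 μmol/L olaparib in DMSO, and each of the 6 groups has 3 libraries. The 9 WT libraries come from cells named T47D AAV and the 9 PARP1 KO libraries from cells named T47D JL. The labels explain neither name and name 1 line for each genotype, so an effect of PARP1 loss and another difference between these lines cannot be told apart. The methods describe 3 dishes for each condition but tie no library to a dish or to a separate experiment, so P values measure the spread between these libraries, which may be technical.

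Library totals were between 28890837 and 52251288 counts. Levels are given as CPM (counts scaled to a common library size), with the sizes adjusted by TMM, a normalization that assumes that most genes do not change. PARP1 had 337 ± 27 CPM (SD, n = 9) in the WT libraries and 25.1 ± 1.38 CPM (SD, n = 9) in the PARP1 KO libraries, so reads were still counted on it at 7.45% of the WT level. All 8 luminal markers were expressed, with KRT8 at 2403 to 4425 CPM over the 18 libraries. Of 7 markers of other cells, COL1A1 (88.3 to 153 CPM) and ACTA2 (35.8 to 49.2 CPM) were measured in every library, VIM reached at most 0.71 CPM, PTPRC 0.18 CPM and KRT14 0.15 CPM, and KRT5 and PECAM1 did not pass the count filter. Their summed level was 144.5 to 170 CPM with DMSO, 159 to 200 CPM with niraparib and 144 to 154.5 CPM with olaparib in WT, and 129 to 171 CPM in the PARP1 KO libraries. WT DMSO replicate 1, WT niraparib replicate 2, PARP1 KO niraparib replicate 3 and PARP1 KO olaparib replicate 3 are called the 4 libraries that stand apart, by the 4 highest scores on the second principal component, 9.23 to 15.7 against at most 3.94 in the other libraries. The chi-square per gene between libraries of a group also put the first 3 of them farthest from their groups (10.9 to 17.5, against at most 3.27 between the remaining libraries of those groups), but in PARP1 KO with olaparib it put replicate 1 farthest (9.65 and 16.9, against 7.63 between replicates 2 and 3). PARP1 KO DMSO replicate 3 had the lowest score on that component, -14.7, farther from 0 than 3 of the 4, and was the farthest in its group (9.79 and 5.41, against 3.03 between replicates 1 and 2). Leaving out PARP1 KO olaparib replicate 1 in place of replicate 3, and leaving out PARP1 KO DMSO replicate 3 beside the 4, were tried as well.

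In the mammalian clock, CLOCK pairs with BMAL1 or BMAL2 to activate genes through E-box elements, among them the PER and CRY genes, whose proteins return to the nucleus and repress that pair. NR1D1 and NR1D2 encode REV-ERBα and REV-ERBβ, repressors that compete with the ROR receptors for sites in genes such as BMAL1. DBP and TEF encode PAR bZIP activators of D-box elements, where the repressor NFIL3 competes with them. These transcripts cycle over the day in synchronised cells, and PER1 also responds within hours to hormones, serum and cAMP. All libraries share 1 harvest time, so a changed level and a changed phase of a rhythm cannot be told apart, and in bulk RNA neither can less RNA per cell and fewer cells with that RNA.

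Promoters of 6 members are shown because NR1D1, PER2 and DBP were called with niraparib in WT and because PER1, NR1D2 and TEF hold matches to E-box elements; of the 2 TEF windows the first is shown. Each line gives the 250 bases before a RefSeq transcription start (GRCh38.p14), 5′ to 3′ on the strand of the gene, with bases that match an element in capitals. The elements searched on both strands were the E-box (CACGTG), the D-box (TTATGTAA or TTACGTAA), the core site of REV-ERB and ROR receptors (TAGGTCA or AAGGTCA) and the cAMP response element (TGACGTCA).
NR1D1 (chr17:40100590-40100839, minus strand): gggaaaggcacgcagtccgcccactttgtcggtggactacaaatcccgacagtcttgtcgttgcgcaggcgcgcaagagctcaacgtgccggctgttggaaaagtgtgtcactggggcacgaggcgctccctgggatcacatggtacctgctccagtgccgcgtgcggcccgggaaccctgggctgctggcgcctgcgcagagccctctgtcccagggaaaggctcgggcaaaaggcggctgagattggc
PER2 (chr2:238288611-238288860, minus strand): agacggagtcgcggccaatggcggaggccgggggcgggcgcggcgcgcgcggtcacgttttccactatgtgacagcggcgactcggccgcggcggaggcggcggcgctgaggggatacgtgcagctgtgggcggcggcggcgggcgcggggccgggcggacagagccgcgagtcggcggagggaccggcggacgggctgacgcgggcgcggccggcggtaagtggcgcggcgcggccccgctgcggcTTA
DBP (chr19:48637380-48637629, minus strand): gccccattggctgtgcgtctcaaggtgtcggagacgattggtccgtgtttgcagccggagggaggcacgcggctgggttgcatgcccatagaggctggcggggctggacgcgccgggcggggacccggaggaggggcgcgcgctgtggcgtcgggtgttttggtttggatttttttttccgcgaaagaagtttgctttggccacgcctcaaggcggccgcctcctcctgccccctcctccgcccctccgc
PER1 (chr17:8152405-8152654, minus strand): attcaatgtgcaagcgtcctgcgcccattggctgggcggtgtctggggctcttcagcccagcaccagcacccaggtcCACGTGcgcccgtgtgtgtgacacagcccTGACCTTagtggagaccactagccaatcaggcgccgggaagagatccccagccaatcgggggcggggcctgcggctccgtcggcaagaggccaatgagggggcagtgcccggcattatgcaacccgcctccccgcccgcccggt
NR1D2 (chr3:23945871-23946120, plus strand): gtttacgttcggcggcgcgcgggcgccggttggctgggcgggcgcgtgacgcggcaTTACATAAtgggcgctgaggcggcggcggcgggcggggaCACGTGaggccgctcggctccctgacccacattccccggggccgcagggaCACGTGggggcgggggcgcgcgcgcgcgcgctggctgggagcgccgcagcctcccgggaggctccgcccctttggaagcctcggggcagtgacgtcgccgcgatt
TEF (chr22:41367205-41367454, plus strand): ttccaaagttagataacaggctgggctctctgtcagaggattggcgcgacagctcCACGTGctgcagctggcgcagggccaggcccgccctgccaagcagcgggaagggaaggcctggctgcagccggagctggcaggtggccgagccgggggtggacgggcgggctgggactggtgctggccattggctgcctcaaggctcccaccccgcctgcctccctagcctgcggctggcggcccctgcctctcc

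RefSeq gave 15 start windows for the 10 members, each from 250 bases before to 50 bases after a start. The E-box was in 4 of these windows, in PER1 (173 bases before the start), in the NR1D2 window shown (155 and 105 bases before) and in both TEF windows (195 and 193 bases before their starts), against 7.26% of 35116 windows of all genes. The D-box was in 3 windows, those of PER2, PER3 and NR1D2, against 1.01% of all windows; the PER2 match spans the start, so that only its first 3 letters end the PER2 line. The receptor core site was in 3 windows, 1 of PER1 and both of CRY2, against 5.68% of all windows. The cAMP response element was in 0 of the 15 windows, against 1.85% of all windows. No element searched was found in the windows of NR1D1, DBP, CLOCK or CRY1. A match describes these letters only, and elements outside the windows were not searched.

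Both drugs changed clock genes in WT, and olaparib did in PARP1 KO as well. Calls required 2 things, an adjusted P value under 0.05 and a difference above 1.5-fold, and all 10 members passed the count filter in every fit. With niraparib against DMSO in WT, 3 of the 10 members were called, where 13.8% of all genes tested were. With olaparib against DMSO in WT it was 2 of 10, where 4.04% of all genes were. In the PARP1 KO libraries it was 0 of 10 with niraparib, where 0.0136% of all genes were called, and 3 of 10 with olaparib, where 0.803% were. By the adjusted P value alone, 7 of 10 members passed with niraparib in WT (38.0% of all genes), 8 with olaparib in WT (19%), 1 with niraparib in PARP1 KO (0.109%) and 7 with olaparib in PARP1 KO (8.29%). All members have a mean above 10 CPM, and of the 9803 genes at this level, 61.3% passed the adjusted P value with niraparib in WT, 33.1% with olaparib in WT, 0.224% with niraparib in PARP1 KO and 16.3% with olaparib in PARP1 KO. The median log2 fold change of the members was 0.0394 with niraparib and 0.312 with olaparib in WT, beside medians of -0.0247 and -0.0166 over all genes, and -0.0488 and 0.290 in PARP1 KO, beside 0.00503 and 0.00578. Niraparib and olaparib are compared with the same DMSO libraries within a genotype.

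**Figure D1:**
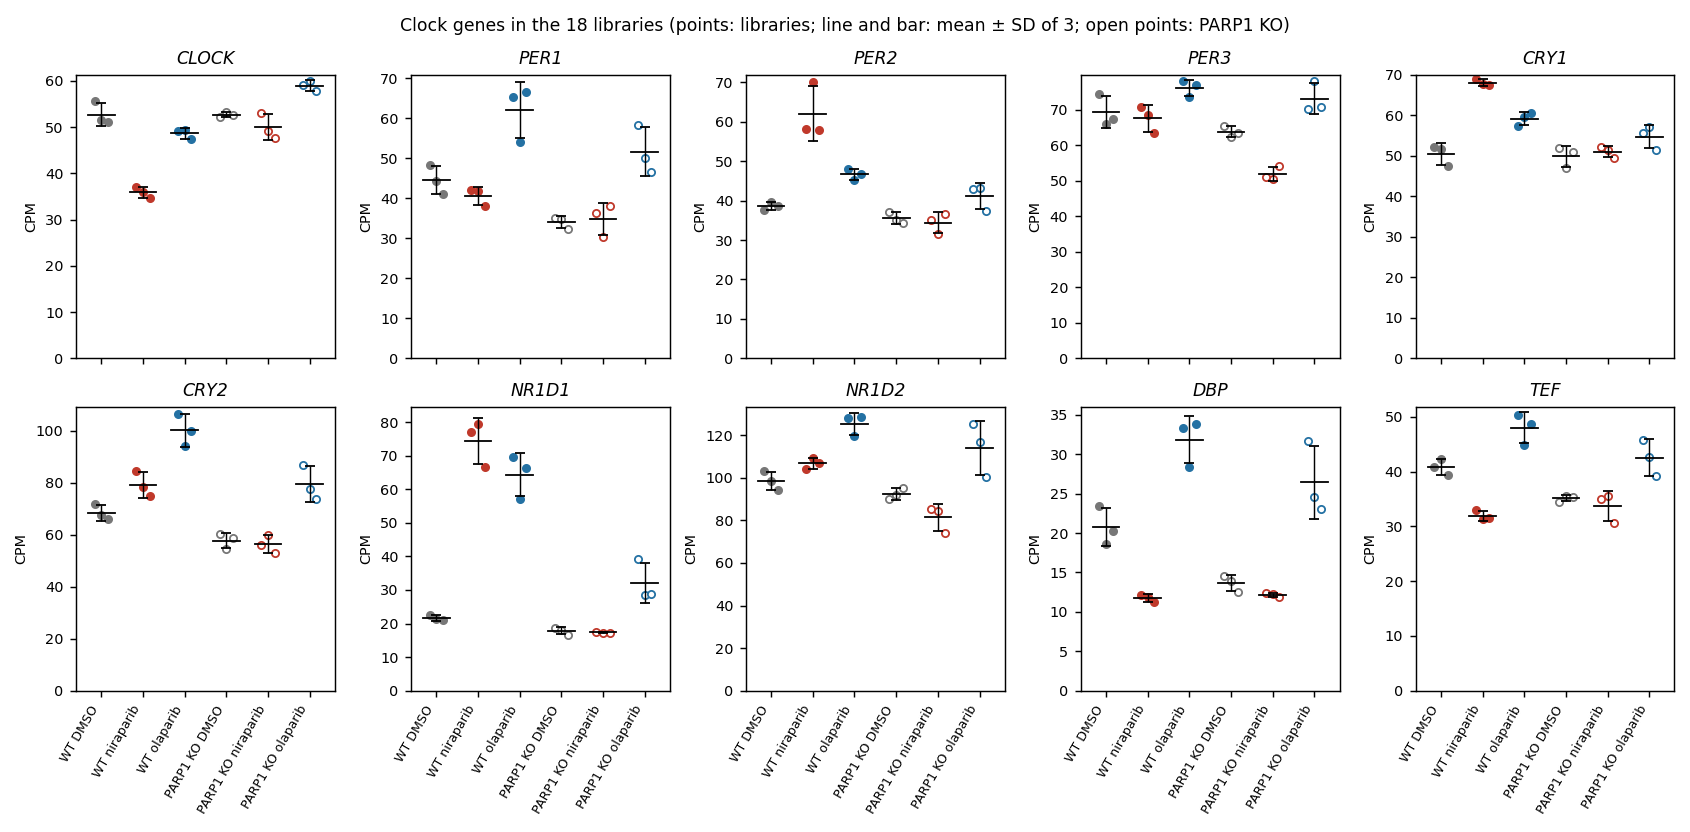
CPM of the 10 clock genes (vertical axes, linear from 0) in the 6 groups, with a point for each library, filled for WT and open for PARP1 KO, and the mean ± SD of 3 libraries. NR1D1 stands at 57.2 to 79.5 CPM in the 6 WT libraries with a drug and at 16.7 to 39.1 CPM in the other 12, and DBP is lowest with niraparib, where WT (11.2 to 12.1 CPM) and PARP1 KO (11.9 to 12.3 CPM) overlap.

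CLOCK, the DNA-binding activator of the loop (ENSG00000134852, chromosome 4, 55427903 to 55546909, GRCh38), had 55.5, 51.6 and 51.0 CPM in the WT DMSO libraries and 37.0, 35.9 and 34.7 CPM with niraparib. The olaparib libraries of WT had 49.2, 49.3 and 47.3 CPM. Niraparib libraries were lowest without overlap. The log2 fold change with niraparib was -0.55 (SE 0.056, adjusted P = 4.6e-08, edgeR), a 1.47-fold drop that is just under the limit for a call; with olaparib it was -0.11 (SE 0.055, adjusted P = 0.18). In PARP1 KO, CLOCK had 52.6 ± 0.531 CPM (SD, n = 3) with DMSO, 49.9 ± 2.78 CPM with niraparib and 58.9 ± 1.14 CPM with olaparib, and neither drug passed the test (adjusted P = 0.76 and 0.078).

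PER1 (ENSG00000179094, chromosome 17, 8140472 to 8156506), the period gene with the fastest response to outside signals, had 48.4, 44.4 and 41.2 CPM with DMSO, 42.1, 41.9 and 38.1 CPM with niraparib and 65.5, 54.0 and 66.7 CPM with olaparib in WT. In PARP1 KO it had 35.1, 35.0 and 32.4 CPM with DMSO, 36.3, 30.2 and 38.0 CPM with niraparib and 58.5, 50.03 and 46.5 CPM with olaparib. Olaparib libraries were above DMSO libraries in both genotypes, while niraparib and DMSO libraries overlapped in both. The log2 fold change with olaparib was 0.48 (SE 0.079, adjusted P = 3.7e-04) in WT, less than 1.5-fold, and 0.60 (SE 0.089, adjusted P = 7.6e-04) in PARP1 KO, where PER1 rose. The PARP1 KO value lies close to the limit: it was 0.50 without PARP1 KO olaparib replicate 1, 0.50 without that library and the first 3 of the 4 libraries that stand apart, and 0.57 without PARP1 KO DMSO replicate 3. With niraparib it was -0.13 (95% interval -0.29 to 0.025) in WT and 0.036 (-0.14 to 0.21) in PARP1 KO.

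PER2 (ENSG00000132326, chromosome 2, 238244044 to 238290102) differed from PER1 in WT, where it was highest with niraparib. The WT libraries had 37.6, 39.5 and 38.6 CPM with DMSO, 58.2, 70.0 and 57.8 CPM with niraparib and 48.0, 45.1 and 46.8 CPM with olaparib. The 3 WT groups did not overlap. PER2 rose with niraparib by 0.69 on the log2 scale (SE 0.066, adjusted P = 2.4e-08), and was 0.28 higher with olaparib (SE 0.067, adjusted P = 0.0048), less than 1.5-fold. Without WT niraparib replicate 2, the highest library, the niraparib value was 0.58, just under the limit for a call, and without the 4 libraries that stand apart it was 0.57. In PARP1 KO, PER2 had 37.2, 35.1 and 34.4 CPM with DMSO, 35.1, 31.4 and 36.7 CPM with niraparib and 42.9, 43.2 and 37.5 CPM with olaparib. The niraparib libraries there overlapped the DMSO libraries, with a log2 fold change of -0.040 (95% interval -0.18 to 0.10), and the olaparib value was 0.21 (adjusted P = 0.066).

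PER3 (ENSG00000049246, chromosome 1, 7784320 to 7845177), the third period gene, passed the test with neither drug in WT, where it had 69.3 ± 4.53 CPM (SD, n = 3) with DMSO, 67.6 ± 3.79 CPM with niraparib and 76.2 ± 2.32 CPM with olaparib. In PARP1 KO it had 63.8 ± 1.55, 51.9 ± 1.96 and 73.1 ± 4.44 CPM (SD, n = 3) in the same order. With niraparib in PARP1 KO it was the 1 member under the adjusted P value of 0.05, at a log2 fold change of -0.29 (SE 0.058, adjusted P = 0.045), less than 1.5-fold; over the alternatives that value ranged from -0.33 to -0.27 and its adjusted P value from 0.0015 to 0.23. In the same comparison 2 members, PER3 and NR1D2, had an unadjusted P value below 0.05 by edgeR, where 2014 of 22037 genes tested did. DESeq2 called 0 members there, and 8 of all genes. With olaparib in PARP1 KO, PER3 was 0.20 higher (SE 0.057, adjusted P = 0.036, from 0.011 to 0.24 over the alternatives). Exons of genes on the other strand overlap 16.7% of the PER3 exon bases, and counting used the strand.

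The cryptochromes, the strongest repressors of the CLOCK and BMAL1 pair, were both higher with either drug in WT. CRY1 (ENSG00000008405, chromosome 12, 106991364 to 107093549) had 47.3 to 52.2 CPM with DMSO, 67.4 to 68.9 CPM with niraparib and 57.3 to 60.5 CPM with olaparib, 3 groups without overlap. Its log2 fold change was 0.43 with niraparib (SE 0.053, adjusted P = 8e-07) and 0.23 with olaparib (SE 0.053, adjusted P = 0.0032), both less than 1.5-fold. CRY2 (ENSG00000121671, chromosome 11, 45847118 to 45883248) was also lowest with DMSO but had the drugs in the reverse order. It had 65.9 to 71.9 CPM with DMSO, 74.7 to 84.3 CPM with niraparib and 93.9 to 106 CPM with olaparib. Its log2 fold change was 0.21 with niraparib (SE 0.059, adjusted P = 0.0064, up to 0.058 over the alternatives). With olaparib it was 0.55 (SE 0.059, adjusted P = 7.5e-07), just under the limit for a call. The olaparib value was past the limit at 0.59 without WT DMSO replicate 1, at 0.60 without WT olaparib replicate 2 and at 0.59 without the 4 libraries that stand apart. In PARP1 KO, CRY2 was 0.46 higher with olaparib (SE 0.065, adjusted P = 2.2e-04), less than 1.5-fold, and CRY1 was 0.13 higher (adjusted P = 0.19). With niraparib in PARP1 KO the values were 0.036 for CRY1 (95% interval -0.081 to 0.15) and -0.031 for CRY2 (-0.16 to 0.099).

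NR1D1 (ENSG00000126368, chromosome 17, 40092793 to 40100589) had the largest change of the 10 members in WT with either drug. Its WT libraries had 22.6, 21.4 and 20.9 CPM with DMSO, 77.1, 79.5 and 66.5 CPM with niraparib and 69.5, 57.2 and 66.3 CPM with olaparib. Every treated WT library was more than 2 times any WT DMSO library, and the drugs overlapped with each other. NR1D1 rose 3.44-fold with niraparib (log2 fold change 1.78, SE 0.080, adjusted P = 1.2e-11) and 2.98-fold with olaparib (1.58, SE 0.080, adjusted P = 1e-09). In PARP1 KO it had 18.7, 18.1 and 16.7 CPM with DMSO, 17.5, 17.2 and 17.3 CPM with niraparib and 39.1, 28.5 and 28.9 CPM with olaparib. There it rose 1.81-fold with olaparib (0.85, SE 0.10, adjusted P = 9.5e-05), while the niraparib value was -0.033 (95% interval -0.24 to 0.17). Exons of THRA on the other strand overlap 10.0% of the exon bases of NR1D1.

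NR1D2 (ENSG00000174738, chromosome 3, 23945286 to 23980617), the REV-ERBβ gene, stayed under 1.5-fold with both drugs. It had 98.7 ± 4.28 CPM (SD, n = 3) with DMSO, 107 ± 2.57 CPM with niraparib and 125 ± 5.18 CPM with olaparib in WT, and 92.3 ± 2.64, 81.4 ± 6.15 and 114 ± 12.7 CPM in PARP1 KO. The olaparib values, 0.35 on the log2 scale in WT (SE 0.049, adjusted P = 2.7e-05) and 0.30 in PARP1 KO (SE 0.071, adjusted P = 0.012), passed the adjusted P value at less than 1.5-fold. The adjusted P value in PARP1 KO was up to 0.071 over the alternatives. The niraparib values were 0.11 (adjusted P = 0.076) in WT and -0.18 (adjusted P = 0.45) in PARP1 KO.

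DBP (ENSG00000105516, chromosome 19, 48630030 to 48637438), a direct target of the CLOCK and BMAL1 pair in many tissues, fell with niraparib and rose with olaparib in WT. Its WT libraries had 23.4, 18.6 and 20.2 CPM with DMSO, 12.1, 11.9 and 11.2 CPM with niraparib and 33.3, 28.4 and 33.8 CPM with olaparib. The 3 groups did not overlap. DBP fell by 0.82 on the log2 scale with niraparib (SE 0.089, adjusted P = 1.4e-07) and rose by 0.63 with olaparib (SE 0.085, adjusted P = 1.6e-05). The olaparib value was 0.55 without WT DMSO replicate 2 and 0.58 without WT olaparib replicate 3, both under the limit for a call. In PARP1 KO, DBP had 14.5, 13.9 and 12.5 CPM with DMSO, 12.3, 12.3 and 11.9 CPM with niraparib and 31.7, 24.6 and 23.03 CPM with olaparib. There it rose by 0.96 with olaparib (SE 0.10, adjusted P = 2.1e-05), and the niraparib value was -0.16 (95% interval -0.37 to 0.047). Exons of SPHK2 on the other strand overlap 10.1% of the DBP exon bases.

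TEF (ENSG00000167074, chromosome 22, 41367333 to 41399326), the other PAR bZIP gene of the set, differed from DMSO with the same sign as DBP but by less than 1.5-fold. It had 40.9 ± 1.39 CPM (SD, n = 3) with DMSO, 31.9 ± 0.911 CPM with niraparib and 48.0 ± 2.82 CPM with olaparib in WT. The log2 fold change was -0.36 with niraparib (SE 0.060, adjusted P = 4.5e-05) and 0.23 with olaparib (SE 0.059, adjusted P = 0.0071, up to 0.065 over the alternatives), both less than 1.5-fold. In PARP1 KO, TEF had 35.1 ± 0.545, 33.7 ± 2.72 and 42.5 ± 3.34 CPM (SD, n = 3) with DMSO, niraparib and olaparib. The log2 fold changes there were -0.058 with niraparib (adjusted P = 0.86) and 0.28 with olaparib (adjusted P = 0.016, up to 0.076 over the alternatives).

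**Figure D2:**
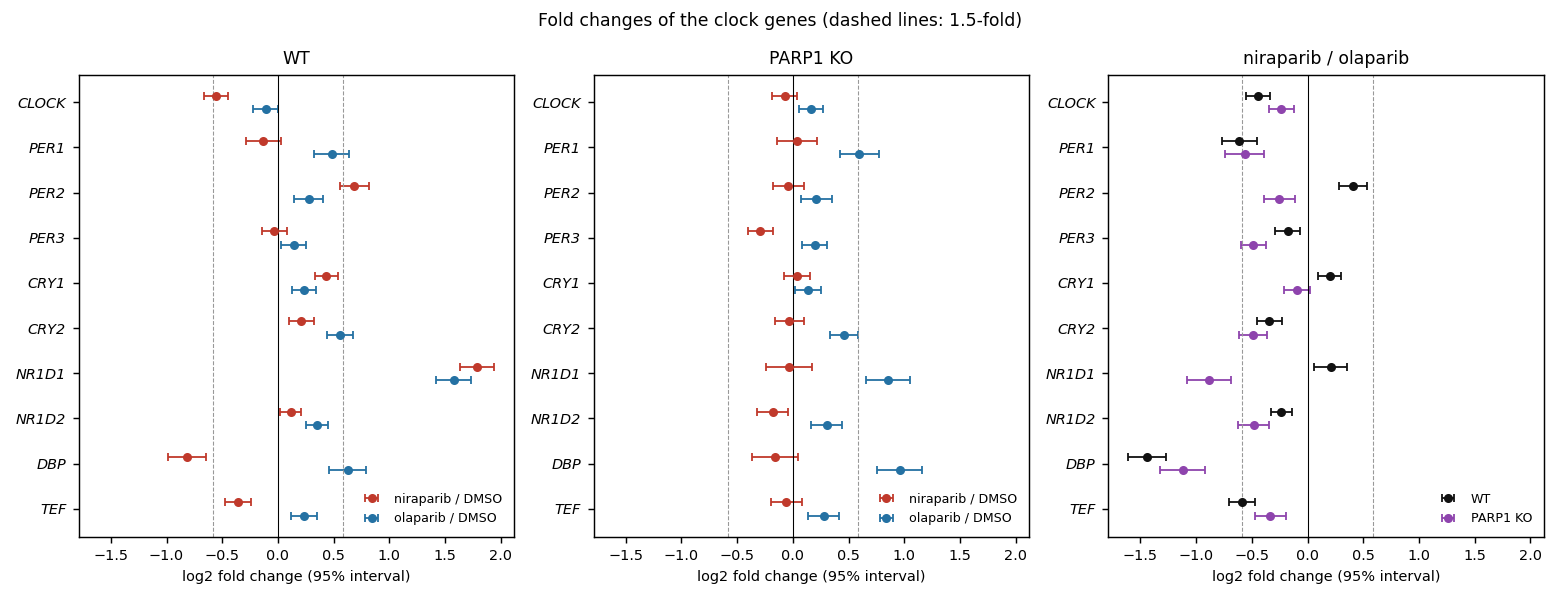
Log2 fold changes (horizontal axes) with 95% intervals for the 10 clock genes: drug against DMSO in WT (left) and in PARP1 KO (middle), and niraparib against olaparib in both genotypes (right). In WT the niraparib points run from -0.82 for DBP to 1.78 for NR1D1, while in PARP1 KO they lie between -0.29 and 0.036.

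Niraparib and olaparib had the same dose and time, so they were also compared directly, in 10 members for each genotype. In WT, 3 of 10 members were called, all lower with niraparib, where 8.95% of all genes tested were called. They were DBP at -1.44 on the log2 scale (SE 0.088, adjusted P = 5.2e-11), PER1 at -0.61 (SE 0.079, adjusted P = 1.2e-05) and TEF at -0.59 (SE 0.060, adjusted P = 9.5e-08). The PER1 and TEF values lie close to the limit: PER1 was -0.56 without WT niraparib replicate 3, -0.57 without WT olaparib replicate 1 and -0.56 without WT olaparib replicate 3, and TEF was -0.58, -0.58, -0.55 and -0.58 without WT niraparib replicates 2 and 3 and WT olaparib replicates 1 and 3. TEF was also at -0.58 in a fit of the 6 libraries compared and at -0.58 without the libraries that stand apart. Without WT olaparib replicate 1, or without WT niraparib replicate 3 or WT olaparib replicate 3, DBP was the 1 member called. All 10 members passed the adjusted P value alone (32.2% of all genes), among them PER2, at 0.41 higher with niraparib (SE 0.065, adjusted P = 3.7e-05), and NR1D1, 0.21 higher (95% interval 0.059 to 0.35, adjusted P = 0.044, from 0.0019 to 0.23 over the alternatives).

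In PARP1 KO, 2 of 10 members were called between the drugs, both lower with niraparib, where 1.07% of all genes were called. They were DBP at -1.12 (SE 0.10, adjusted P = 3.4e-06) and NR1D1 at -0.89 (SE 0.10, adjusted P = 6.1e-05). PER1, at -0.56 (SE 0.089, adjusted P = 8.1e-04), passed the limit at -0.59 without PARP1 KO niraparib replicate 1, at -0.63 without PARP1 KO niraparib replicate 3, at -0.63 without PARP1 KO olaparib replicate 3, at -0.70 without the 4 libraries that stand apart and at -0.69 without these and PARP1 KO DMSO replicate 3. By the adjusted P value alone, 9 of 10 members differed (10.0% of all genes), with CRY1 as the exception at -0.098 (95% interval -0.22 to 0.018). The sign of the difference between the drugs was the same in WT and PARP1 KO for 7 of the 10 members, in comparisons that share no library. PER2, CRY1 and NR1D1 were the other 3. The share of all genes with the same sign was not computed.

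The genotypes were compared with DMSO. Of the 10 members, 1 was called, where 0.146% of all genes were: DBP was 0.60 lower in PARP1 KO on the log2 scale (SE 0.10, adjusted P = 0.0019). That value fell under 1.5-fold without WT DMSO replicate 1, at -0.51, and without PARP1 KO DMSO replicate 3, at -0.54, and no member was then called. Without the 4 libraries that stand apart it was -0.51, and without these and PARP1 KO DMSO replicate 3 it was -0.45. By the adjusted P value alone, 2 members passed (1.39% of all genes), DBP and CRY2, the latter at -0.24 (SE 0.063, adjusted P = 0.042, from 0.0035 to 0.28 over the alternatives). All 10 point estimates were below 0, with a median of -0.168 beside -0.00163 over all genes; they share the same 6 libraries.

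Whether the drug effect differed between genotypes was tested by the interaction, the log2 fold change in PARP1 KO minus that in WT, in 1 fit of the 18 libraries. For niraparib, 3 of 10 members were called, where 8.88% of all genes were, and 9 of 10 passed the adjusted P value (22.9% of all genes, and 44.6% of those with at least 10 CPM). NR1D1 differed by -1.82 (SE 0.15, adjusted P = 3.7e-08), PER2 by -0.73 (SE 0.099, adjusted P = 4.5e-07) and DBP by 0.65 (SE 0.15, adjusted P = 0.0012). The DBP value was 0.56 without WT DMSO replicate 1, and 0.53 without the 4 libraries that stand apart and PARP1 KO DMSO replicate 3. CLOCK differed by 0.48 (SE 0.078, adjusted P = 1.1e-05) and CRY1 by -0.40 (SE 0.079, adjusted P = 1.6e-04), both less than 1.5-fold. PER1 did not pass, at 0.16 (95% interval -0.11 to 0.44). CRY2, at -0.25 (SE 0.089, adjusted P = 0.041), had an adjusted P value at or above 0.05 in 10 alternatives, up to 0.12, PER3 in 1, up to 0.055, and TEF in 3, up to 0.062. With RLE size factors and with DESeq2, 8 members passed.

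For olaparib, 1 of 10 members was called for the interaction, where 0.657% of all genes were: NR1D1 differed by -0.72 (SE 0.15, adjusted P = 0.015). Without the 4 libraries that stand apart it was -0.68 with an adjusted P value of 0.12, and without these and PARP1 KO DMSO replicate 3 it was -0.73 with an adjusted P value of 0.16. With PARP1 KO olaparib replicate 1 left out in place of replicate 3 it was -0.92 with an adjusted P value of 1.1e-09. CLOCK was the other of the 2 members that passed the adjusted P value alone (2.27% of all genes), at 0.28 (SE 0.078, adjusted P = 0.046, from 0.0080 to 0.15 over the alternatives). The other 8 members had point estimates between -0.095 and 0.34, and the widest interval, that of DBP, ran from 0.063 to 0.61 (adjusted P = 0.22). With olaparib, 9 of the 10 members had the same sign in WT and PARP1 KO, in comparisons that share no control, and CLOCK was the exception. With niraparib it was 5 of 10. The share of all genes with the same sign was not computed, so whether these counts are particular to the members was not tested.

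**Figure D3:**
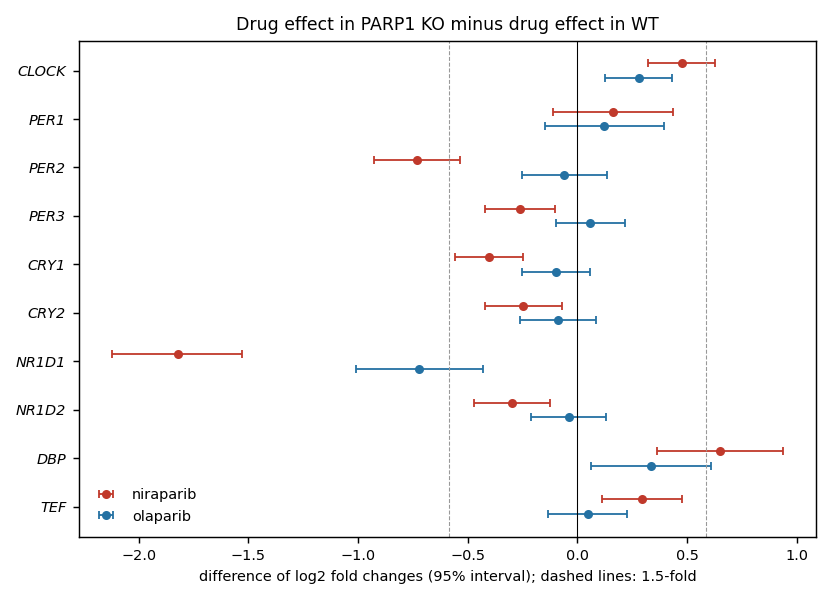
Difference between the drug effect in PARP1 KO and in WT (horizontal axis, log2, with 95% intervals) for the 10 clock genes, niraparib in red and olaparib in blue. NR1D1 lies farthest from 0 for both drugs, at -1.82 and -0.72, and the intervals of PER1 include 0 for both.

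Levels of different genes were compared per kb of exon. In WT with DMSO the order was NR1D2 (17.04 ± 0.739 CPM per kb, SD, n = 3), CRY2 (11.03 ± 0.502), CRY1 (10.5 ± 0.558), TEF (8.69 ± 0.297), PER3 (8.56 ± 0.560), NR1D1 (8.22 ± 0.323), PER1 (6.37 ± 0.513), PER2 (5.61 ± 0.139), CLOCK (4.57 ± 0.214) and DBP (3.17 ± 0.375). The neighbours CRY2 and CRY1, TEF and PER3, and PER3 and NR1D1 overlapped between libraries, and the other neighbours did not. NR1D1 moved from the sixth place to the first with niraparib in WT, at 28.3 ± 2.64 CPM per kb, above NR1D2 at 18.4 ± 0.444. With olaparib in WT it stood at 24.5 ± 2.43 CPM per kb and overlapped NR1D2 at 21.6 ± 0.893. DBP and CLOCK were the lowest members in all 3 WT groups.

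Ratios of paralogs within a library do not depend on the library total. The ratio of NR1D1 to NR1D2 per kb was 0.477 to 0.488 in WT with DMSO, 1.37 to 1.63 with niraparib and 1.06 to 1.20 with olaparib, and 0.386 to 0.457, 0.449 to 0.512 and 0.538 to 0.688 in PARP1 KO in the same order. The ratio of PER2 to PER1 was 0.793 to 0.954 with DMSO, 1.41 to 1.70 with niraparib and 0.715 to 0.851 with olaparib in WT. PER2 thus exceeded PER1 in every WT niraparib library and in no other WT library, while in PARP1 KO the ratio was 1.02 to 1.08 with DMSO, 0.984 to 1.06 with niraparib and 0.747 to 0.879 with olaparib. The ratio of CRY2 to CRY1 was 1.01 to 1.07 with DMSO, 0.854 to 0.943 with niraparib and 1.22 to 1.43 with olaparib in WT. The ratio of DBP to TEF was 0.317 to 0.412, 0.256 to 0.275 and 0.455 to 0.499 in the same order.

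**Figure D4:**
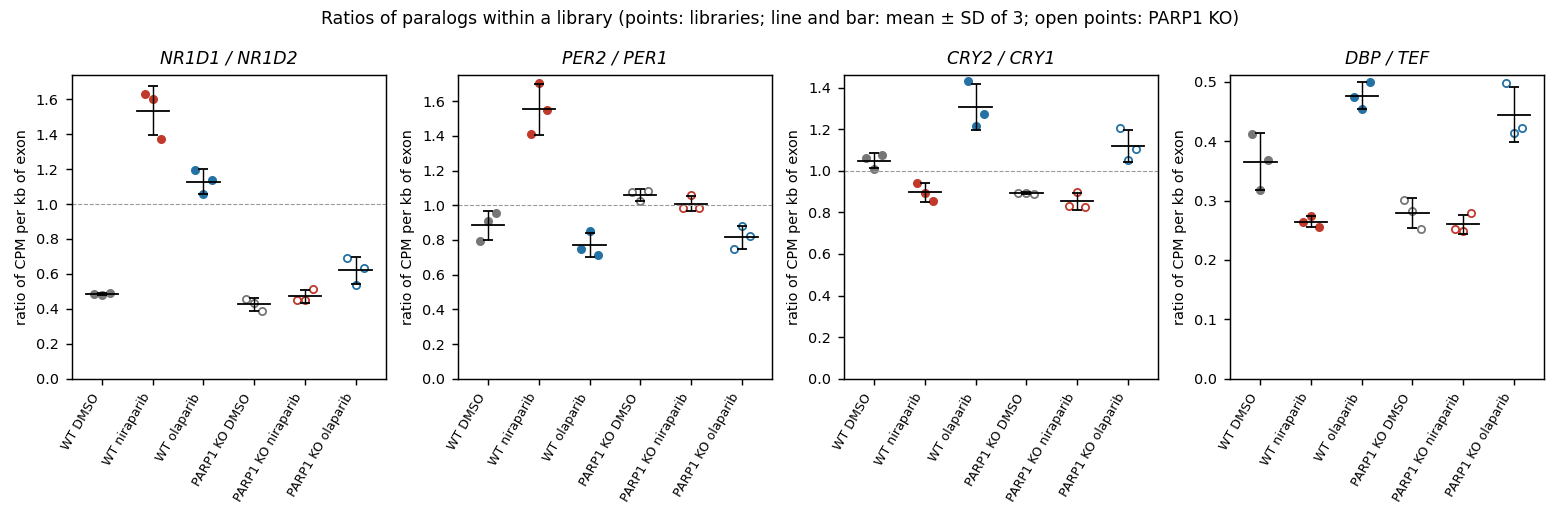
Ratio of CPM per kb of exon between 4 pairs of paralogs (vertical axes, linear from 0; dashed line at equal levels) in the 6 groups, with a point for each library and the mean ± SD of 3. In WT the NR1D1 to NR1D2 and PER2 to PER1 ratios pass 1 with niraparib, at means of 1.53 and 1.55.

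The genes whose pattern over the 18 libraries was most like that of the called members were found among 13526 genes averaging 1 CPM or more, by the root mean square (RMS) difference of log2 CPM centred on each gene's mean. For NR1D1, whose own RMS around its mean was 0.852, they were GDF15 (0.132), BTG2 (0.158) and PMAIP1 (0.188). For DBP, with an RMS of 0.568, they were RASD2 (0.196), CEP152 (0.218) and RAB3A (0.224). For PER2, with an RMS of 0.297, they included UNK (0.0834) and TET3 (0.0846). In WT with niraparib, GDF15 had a log2 fold change of 1.75, RASD2 of -0.78 and TET3 of 0.76.

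Of 11 partners and competing factors of the clock genes, 8 were called with niraparib in WT, 7 of them higher, where 13.8% of all genes were called. With olaparib 3 were called, all higher, where 4.04% of all genes were. The median log2 fold change of the 11 was 0.635 with niraparib and 0.294 with olaparib, beside -0.0247 and -0.0166 over all genes. The list is mostly of transcription factors, but holds TIMELESS, a protein of the replication fork, which was not called with either drug. BMAL1, the partner of CLOCK, had 5.90 to 7.70 CPM with DMSO and 12.2 to 13.9 CPM with niraparib in WT, and rose by 0.91 on the log2 scale (SE 0.11, adjusted P = 4.2e-07) in the same libraries in which NR1D1 rose. BMAL2, its paralog, rose by 1.045 (SE 0.24, adjusted P = 0.0013) from 1.15 ± 0.244 CPM (SD, n = 3), and NPAS2, a paralog of CLOCK, by 0.63 (SE 0.24, adjusted P = 0.046) from 0.875 ± 0.137 CPM. NPAS2 lost its call in 9 of 14 alternatives, with an adjusted P value of up to 0.13: without WT DMSO replicates 2 or 3 or WT niraparib replicates 1 or 3 (0.56 to 0.57), with DESeq2, with no filter on low counts, with the replicate block, and with 18 or 6 libraries in the fit. RORA, a receptor that competes with the REV-ERBs, rose by 2.16 (SE 0.40, adjusted P = 1.4e-04), from 4 to 11 counts in the DMSO libraries to 24 to 52 counts with niraparib. With olaparib in WT, RORA passed the limit at 1.42 without WT DMSO replicate 1, at 1.40 without WT olaparib replicate 3 and at 1.42 without the 4 libraries that stand apart, and NPAS2 passed it at 0.72 without these 4.

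NFIL3 and HLF, whose proteins meet DBP and TEF at D-box elements, rose with both drugs in WT. NFIL3, the competing repressor, had 12.1 to 12.99 CPM with DMSO, 25.7 to 27.4 CPM with niraparib and 19.6 to 20.2 CPM with olaparib, and rose by 1.08 (SE 0.070, adjusted P = 6.4e-11) and 0.69 (SE 0.071, adjusted P = 6e-07). HLF, the remaining PAR bZIP gene, rose by 1.09 with niraparib (SE 0.16, adjusted P = 7.2e-06) and by 0.67 with olaparib (SE 0.16, adjusted P = 0.0051) from 2.79 ± 0.370 CPM (SD, n = 3), so it moved against DBP with niraparib. The olaparib value of HLF was 0.57 without WT DMSO replicate 1, 0.52 without WT olaparib replicate 1 and 0.58 without the 4 libraries that stand apart, under the limit for a call.

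Among the repressors, BHLHE40 (DEC1) fell by 0.64 with niraparib (SE 0.053, adjusted P = 2.7e-09) from 205 to 234.5 CPM to 135 to 144 CPM, and its olaparib value was 0.073 (adjusted P = 0.38). Without the 4 libraries that stand apart the niraparib value was -0.56, under the limit for a call. CIART, a repressor of the CLOCK and BMAL1 pair, rose by 0.64 with niraparib (SE 0.11, adjusted P = 4.9e-04) and by 1.13 with olaparib (SE 0.11, adjusted P = 1.8e-05). The niraparib value of CIART was 0.57 without WT DMSO replicate 2 and 0.54 without WT niraparib replicate 2. In PARP1 KO, 0 of the 11 were called with niraparib, where 0.0136% of all genes were (edgeR, adjusted P value of at least 0.48 for each). TIMELESS alone was under 0.05 unadjusted, where 2014 of 22037 genes tested were. DESeq2 called 0 of the 11, and 8 of all genes, and gave no adjusted P value for 5 of the 11. With olaparib in PARP1 KO 1 was called, CIART at 0.91 (SE 0.086, adjusted P = 2.8e-06), where 0.803% of all genes were. The interaction with niraparib was called for 5 of the 11, where 8.88% of all genes were, BMAL1 at -0.71, BMAL2 at -1.245, NFIL3 at -1.03, HLF at -1.275 and BHLHE40 at 0.71. Without the 4 libraries that stand apart BMAL1 was at -0.47, under the limit for a call. Without these and PARP1 KO DMSO replicate 3, BMAL1 was at -0.36 and BHLHE40 at 0.53, under the limit. In some alternatives other genes of the list passed it. BHLHE41, with 4 to 27 counts in a library, did so at 1.97 without PARP1 KO niraparib replicate 3, at 2.03 without the 4 libraries and at 2.30 without these and PARP1 KO DMSO replicate 3. RORA passed at -1.99 without the 4 libraries, and CIART at -0.63 without WT DMSO replicate 1 and at -0.63 without WT niraparib replicate 3.

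**Figure D5:**
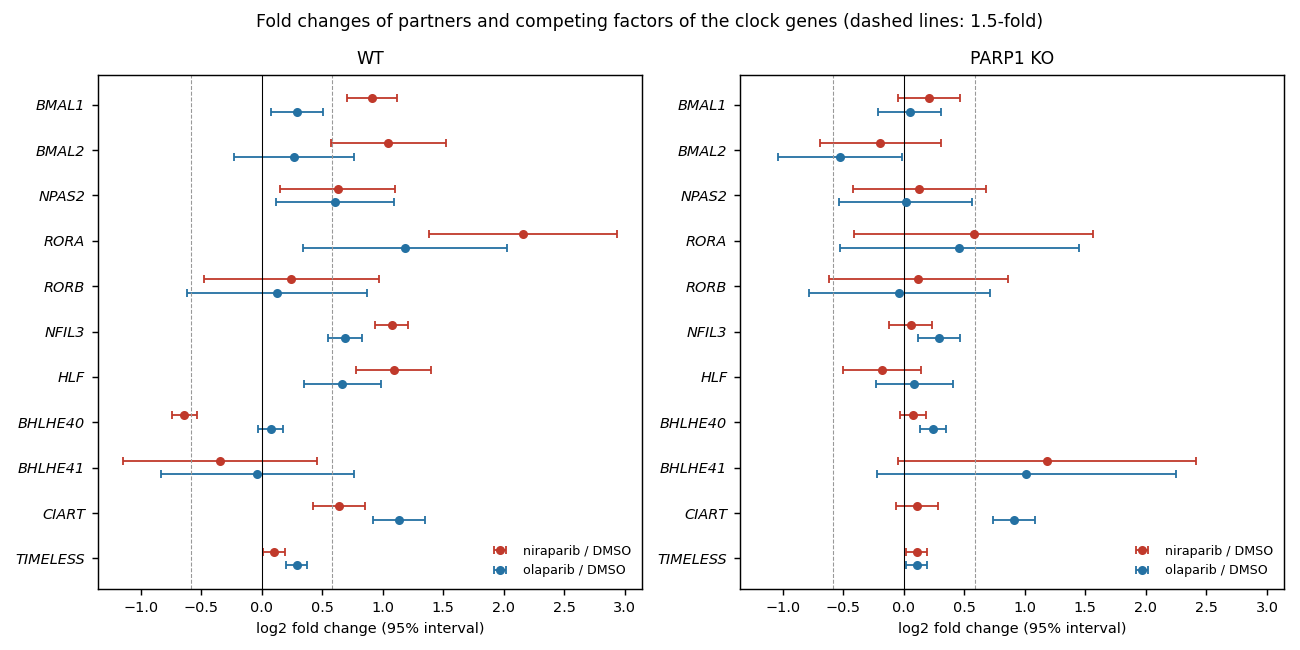
Log2 fold changes (horizontal axes) with 95% intervals of 11 partners and competing factors of the clock genes, niraparib in red and olaparib in blue, in WT (left) and PARP1 KO (right). In WT with niraparib RORA, HLF, NFIL3, BMAL2, BMAL1, CIART and NPAS2 lie past 1.5-fold on the right and BHLHE40 on the left, and wide intervals belong to genes with few counts.

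Of 11 genes for the turnover of clock proteins, 10 were tested and 1 was called with niraparib in WT, 0 with olaparib, where 13.8% and 4.04% of all genes were called. The gene called, USP2, which encodes a deubiquitinase of clock proteins and is itself under clock control, had 17.04 to 17.7 CPM with DMSO, 40.3 to 42.2 CPM with niraparib and 21.2 to 21.7 CPM with olaparib, and rose by 1.24 with niraparib (SE 0.061, adjusted P = 7.2e-13). In PARP1 KO it had 16.9 to 22.7 CPM over all 9 libraries, and neither drug passed the test there. In PARP1 KO 0 of the 10 were called with either drug, where 0.0136% and 0.803% of all genes were. The other 9 genes tested had log2 fold changes between -0.38 (USP7, another deubiquitinase) and 0.39 (the kinase DYRK1A) with niraparib in WT, and the median of the 10 was -0.0604, beside -0.0247 over all genes.

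Of 11 genes often described as clock outputs, 4 were called with niraparib in WT, where 13.8% of all genes were, with a median log2 fold change of -0.036, beside -0.0247 over all genes. KLF10 rose by 0.78 (SE 0.056, adjusted P = 2.4e-10) and WEE1, which encodes a kinase that holds back mitosis, fell by 0.69 (SE 0.068, adjusted P = 3.5e-08); USP2 and BHLHE40 are the values above. With olaparib in WT, 0 of the 11 were called by edgeR and by DESeq2, where 4.04% of all genes were by edgeR, with a median of 0.304, beside -0.0166 over all genes. Of the 11, 6 were higher by the adjusted P value alone, where 19% of all genes passed. One of the 6, PPARGC1A, which encodes the coactivator PGC-1α, was at 0.58, just under the limit. It was past the limit at 0.60 without WT DMSO replicate 1, 0.65 without WT DMSO replicate 2, 0.64 without WT olaparib replicate 2 and 0.60 without the 4 libraries that stand apart. With niraparib PPARGC1A was at 0.54, and past the limit at 0.61 without WT DMSO replicate 2. In PARP1 KO 0 of 11 were called with either drug, where the shares over all genes were 0.0136% for niraparib and 0.803% for olaparib. There, 5 of the 11 were higher with olaparib by the adjusted P value alone (8.29% of all genes) and 0 passed with niraparib (0.109%).

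Lists of genes that respond to signals that also reach PER1 were changed in part. Of 14 early genes induced by serum and cAMP, PER1 included, 6 were called with niraparib and 5 with olaparib in WT, all higher, where 13.8% and 4.04% of all genes were called. In PARP1 KO it was 2 and 4, where 0.0136% and 0.803% of all genes were. Medians of the list were 0.512 and 0.619 in WT and 0.224 and 0.397 in PARP1 KO, beside -0.0247, -0.0166, 0.00503 and 0.00578 over all genes. DUSP1, which encodes a MAP kinase phosphatase and is on this list and the next, rose by 1.42 with niraparib and 0.75 with olaparib in WT and by 0.74 and 0.73 in PARP1 KO. Of 10 glucocorticoid-responsive genes, PER1 included, 2 of the 9 tested were called with niraparib in WT, against 13.8% of all genes, DUSP1 higher and the metallothionein MT2A 1.03 lower, and 2 with olaparib, against 4.04%, DUSP1 and TSC22D3 (GILZ), the latter at 0.78. Medians of that list were 0.0649 with niraparib and 0.350 with olaparib in WT, beside -0.0247 and -0.0166 over all genes. In PARP1 KO, 1 of 10 was called with niraparib, DUSP1 (0.0136% of all genes), and 2 with olaparib, DUSP1 and PER1 (0.803%). The medians there were 0.0028 and 0.361, beside 0.00503 and 0.00578.

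Genes of mitosis fell with niraparib in WT as well. Their summed level over 12 genes was 4247 to 4601 CPM with DMSO, 1738 to 1854 CPM with niraparib and 3640 to 3654 CPM with olaparib in WT, and 3659 to 4627 CPM over the 9 PARP1 KO libraries. With niraparib in WT, 10 of the 12 were called lower, where 13.8% of all genes were called in either direction, with a median of -1.44, while with niraparib in PARP1 KO it was 0, where 0.0136% of all genes were called, with a median of -0.116. With olaparib in WT, 2 of the 12 were called lower (4.04% of all genes were called), 8 were lower by the adjusted P value alone (19%), and the median was -0.364. With olaparib in PARP1 KO 0 of the 12 were called, where 0.803% of all genes were, and the median was -0.0214. By the adjusted P value alone 1 of the 12 was lower, where 8.29% of all genes passed in either direction. Of the 8 luminal markers, PGR and GATA3 also fell with niraparib in WT, by 0.88 and 0.74, and PGR fell with olaparib, by 0.62. By the adjusted P value alone, 7 of the 8 were lower with each drug in WT, where 38.0% and 19% of all genes passed in either direction. In PARP1 KO, 4 of the 8 were lower by that criterion with olaparib (8.29% of all genes), with a median of -0.148, and 0 with niraparib (0.109%), with a median of -0.0884. The part of a changed cell cycle or cell state in the clock gene values was not tested.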

How the data were processed

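Raw gene counts were deposited by the authors, 1 table a library, for which reads were trimmed with Trimmomatic, mapped to GRCh38 with STAR, passed through Picard MarkDuplicates and counted on exons by strand with featureCounts 2.0.0 and Ensembl release 96. Whether marked duplicates were removed is not clear, since the deposited counts are named deduplicated and the methods say only that duplicates were quantified. Of 58884 identifiers, 58472 had a symbol, and BMAL1 and BMAL2 carry older symbols in that release.

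Genes with more than 10 counts in total went into edgeR 4.0.16 under R 4.3.3 (TMM scaling, robust quasi-likelihood F test, Benjamini-Hochberg over all genes tested) in 9 WT libraries, 9 PARP1 KO libraries, or all 18 for genotypes and interactions. An SE is the size of the log2 fold change over the root of F. The 95% intervals are built from the SE with the normal distribution, so they are somewhat narrower than the F test implies. For CLOCK with olaparib in WT the interval ran from -0.22 to -0.0033 at an unadjusted P value of 0.056 by edgeR. An exact permutation test of 3 against 3 libraries cannot go below 0.1. Biological coefficients of variation were 7.05% to 7.42%. Counts of 983 or more for PER1 in each library limit counting error there. The intervals rest on the spread between the libraries and do not cover variation that the libraries of a group share.

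The members, lists and tests were chosen with earlier results of these data known. Named genes are the members, list genes called in any of 9 comparisons, and the 3 genes most like each member called with a drug in WT. Markers of luminal and other cells check the label. Alternatives were RLE size factors, filterByExpr or no filter, DESeq2 1.42.0, a replicate block, other thresholds, other sets of libraries in the fit and each library left out. The fits were tested on simulated counts. Promoters are from RefSeq, in which all 10 members were found. A few genes of the lists are not reported here and were left out of their counts and medians.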

Additional observations from a re-analysis of the deposited data

Results flagged for a closer look

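The response to niraparib differed between PARP1 KO and WT, by the test of the interaction over 18 libraries, for 9 of the 10 clock genes, where 22.9% of all genes and 44.6% of those at 10 CPM or more passed the same test; with RLE size factors and with DESeq2 it was 8 of 10. As the log2 fold change in PARP1 KO minus that in WT, it was -1.82 for NR1D1, -0.73 for PER2, -0.40 for CRY1, -0.30 for NR1D2, -0.26 for PER3, -0.25 for CRY2, 0.29 for TEF, 0.48 for CLOCK and 0.65 for DBP (edgeR, adjusted P value of at most 0.041). The adjusted P value rose to 0.05 or above in 10 alternatives for CRY2, in 3 for TEF and in 1 for PER3. For olaparib the same test separated the genotypes for NR1D1, at -0.72, and for CLOCK, at 0.28 (edgeR, adjusted P = 0.015 and 0.046), and it rose to 0.05 or above in 2 alternatives for NR1D1 and in 12 for CLOCK. WT and PARP1 KO are 1 cell line each.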

How the results depend on the processing

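Of 1440 values of single members under the alternatives, 1371 kept their direction and their side of the threshold, 25 fell below it, 8 passed it and 36 changed sign where neither value passed; 0 of those called changed sign. The number of members called did not move by more than 1.5 times with RLE size factors, either filter on low counts, DESeq2, the replicate block or another set of libraries in the fit. By the adjusted P value alone the counts were 7, 8 and 10 members for niraparib, olaparib and niraparib against olaparib in WT, 1, 7 and 9 in PARP1 KO, 2 for the genotypes with DMSO, and 9 and 2 for the interactions with niraparib and olaparib. With an absolute log2 fold change above 1.5, they were 1, 1 and 0 in WT, 0, 0 and 0 in PARP1 KO, 0 for the genotypes, and 1 and 0 for the interactions. Leaving out each library in turn gave 2 to 3, 1 to 3 and 1 to 3 members in WT, 0 to 0, 2 to 3 and 2 to 3 in PARP1 KO, 0 to 1 for the genotypes, and 2 to 3 and 1 to 1 for the interactions. Leaving out together the 4 libraries that stand apart, an alternative chosen after seeing the data, gave 0 for the genotypes and 0 for the olaparib interaction. With PARP1 KO olaparib replicate 1 left out in place of replicate 3, also chosen after seeing the data, it was 0 for the genotypes and 1 for the olaparib interaction. With PARP1 KO DMSO replicate 3 left out beside the 4, chosen in the same way, it was 0 for the genotypes and 0 for the olaparib interaction. With the replicate block the counts were 3, 2 and 3 in WT, 0, 3 and 2 in PARP1 KO, 1 for the genotypes, and 3 and 1 for the interactions. Deviations of same-numbered libraries from their group means had correlations of -0.54 to 0.552, with 15 of 45 above 0.1. With 3 libraries in a group, and libraries that stand apart, these correlations cannot decide whether the numbers pair the libraries. The members whose calls changed had values near 1.5-fold, except NR1D1 in the olaparib interaction, whose adjusted P value rose to 0.12 and 0.16; the cause was not tested. Counting error is small for the 10 members at these depths, and limits the values of list genes with few counts, such as RORA, RORB, BHLHE41, SIK1 and NR4A3.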
